A study of Homo sapiens with 2 samples.

Results

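The 6 CDK inhibitor genes CDKN2A, CDKN2B, CDKN2C, CDKN2D, CDKN1A and CDKN1B were examined for H3K27me3, the trimethylation of lysine 27 of histone H3, in HCT116, an established human colorectal carcinoma cell line. The genes were chosen by name, with 7 transcription start positions on hg19, given to the nearest kb, and a start was represented by its 1 kb bin and the 5 bins on either side, an 11 kb window. These 7 windows were set beside the 2672367 windows of the same length, centred on every autosomal 1 kb bin, that held a read in either library. The study held 1 group of 2 ChIP-seq libraries, which the labels call biological replicates, made with an antibody to H3K27me3, and no treatment is named. No second condition, input library or expression measurement was used here, so the cell line was not checked against marker genes and every comparison is between genes or with the rest of the genome. Replicate 1 held 53187504 reads and replicate 2 held 97031399 reads. The mean over listed autosomal 1 kb bins, which defines a level of 1, was 22.0 reads and 37.5 reads, and a level below is always a fold over that mean in the same library. A window at a level of 1 therefore holds 242 and 413 reads, with a counting error of 6.43% and 4.92% for independent reads.

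CDK inhibitors hold back the cell cycle at the step from G1 to S. The INK4 proteins p16INK4A (CDKN2A), p15INK4B (CDKN2B), p18INK4C (CDKN2C) and p19INK4D (CDKN2D) bind CDK4 and CDK6 and keep D-type cyclins from activating them, whereas the Cip/Kip proteins p21CIP1 (CDKN1A) and p27KIP1 (CDKN1B) bind cyclin-CDK complexes, above all those of CDK2. CDKN2A has a further start upstream, from which p14ARF is made in another reading frame, a protein that restrains MDM2 and so stabilises p53. H3K27me3 is laid down by Polycomb repressive complex 2 and marks silent genes, and the CDKN2B and CDKN2A locus on the short arm of chromosome 9 is a textbook Polycomb target in dividing normal cells. In colon cancers CDKN2A is known for DNA methylation of its promoter, which was not measured here.

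None of the 7 starts was enriched in H3K27me3. The mark was scarcest at the 3 starts of the chromosome 9 locus and at CDKN2D, with mean levels from 0.126 to 0.161, somewhat higher at CDKN1B and CDKN2C, and above the autosomal mean at CDKN1A alone, at 1.54. Enrichment of a start required, in each library separately, a level of 2-fold or more and an adjusted p under 0.05 (one-sided Poisson test of the window's count against the mean, Benjamini-Hochberg over all windows). By this rule 0 of 7 starts were called, against 13.6% of all autosomal windows. Without the fold minimum, at an adjusted p under 0.05 in both libraries, CDKN1A was the 1 start above the mean, against a background of 22.8%. It was also the 1 start at an unadjusted Poisson p under 0.05, for which no background share is given here. By the mirror rule, a level of at most 0.5 with a lower count at an adjusted p under 0.05 in both libraries, 5 of 7 starts were low, against 57.8% of autosomal windows. A low level is thus the common state of the genome, with a median window at 0.335 in replicate 1 and 0.358 in replicate 2, and the count of low starts does not set these genes apart. In a population of cells, fewer cells or alleles with the mark and less mark on each cannot be told apart.

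**Figure D1:**
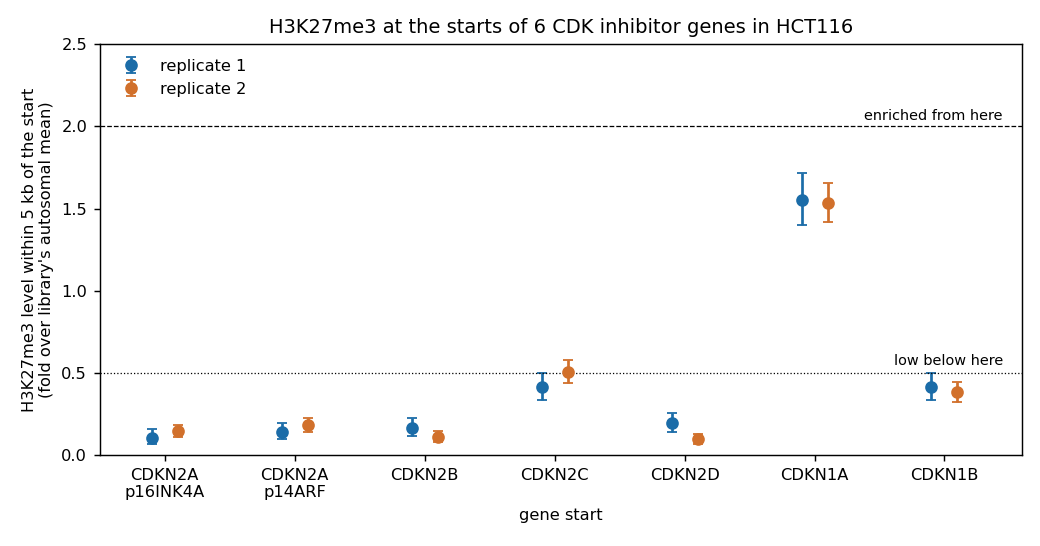
H3K27me3 level within 5 kb of each of the 7 starts (fold over the library's autosomal mean) in replicate 1 (blue) and replicate 2 (orange). Bars are exact 95% Poisson intervals, which cover counting error only. CDKN1A stands at 1.55 and 1.53, under the 2-fold line, and the other 6 starts lie at or under 0.506.

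Promoters from both ends of this range are shown: those of the CDKN2A and CDKN2B starts, which with CDKN2D had the lowest levels, and that of CDKN1A, where the level fell at the start. A relation between their sequence and the level was not tested. Each is the 250 bases before the start in the RefSeq table for GRCh38.p14, 5′ to 3′ along the gene, with CG dinucleotides, the sites of DNA methylation, in capitals. The positions are chr9:21974858-21975107 (minus strand) for p16INK4A, chr9:21995325-21995574 (minus strand) for p14ARF, chr9:22009306-22009555 (minus strand) for CDKN2B and chr6:36678464-36678713 (plus strand) for CDKN1A. They are on another build than the bins and were not converted.
CDKN2A p16INK4A: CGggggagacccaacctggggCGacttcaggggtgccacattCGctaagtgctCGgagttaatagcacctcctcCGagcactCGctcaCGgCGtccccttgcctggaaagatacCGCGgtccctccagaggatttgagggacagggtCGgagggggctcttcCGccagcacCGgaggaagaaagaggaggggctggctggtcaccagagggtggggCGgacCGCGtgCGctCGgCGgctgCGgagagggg
CDKN2A p14ARF: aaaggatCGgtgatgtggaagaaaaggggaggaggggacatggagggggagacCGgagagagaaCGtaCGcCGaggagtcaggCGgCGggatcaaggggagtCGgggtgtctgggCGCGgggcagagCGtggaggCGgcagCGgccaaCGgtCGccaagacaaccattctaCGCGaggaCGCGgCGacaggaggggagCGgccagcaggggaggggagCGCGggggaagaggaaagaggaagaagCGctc
CDKN2B: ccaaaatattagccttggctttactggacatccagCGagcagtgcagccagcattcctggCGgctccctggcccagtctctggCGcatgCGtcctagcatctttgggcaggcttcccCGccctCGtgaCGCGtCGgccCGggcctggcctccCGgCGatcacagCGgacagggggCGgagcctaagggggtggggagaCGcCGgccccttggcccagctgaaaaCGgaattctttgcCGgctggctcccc
CDKN1A: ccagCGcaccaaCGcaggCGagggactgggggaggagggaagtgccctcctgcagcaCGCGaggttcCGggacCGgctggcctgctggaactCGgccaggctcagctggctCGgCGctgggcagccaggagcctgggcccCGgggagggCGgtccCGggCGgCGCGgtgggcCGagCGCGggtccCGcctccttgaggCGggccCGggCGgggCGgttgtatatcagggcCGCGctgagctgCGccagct

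All 6 genes were found in that table, with 9 starts between them. The p16INK4A promoter held 20 CG dinucleotides, the p14ARF promoter 24, the CDKN2B promoter 18 and the CDKN1A promoter 27. Across 35116 RefSeq promoter windows of this length the median was 11, and 93.9% held at least 1 CG. CDKN1B also held 27 and CDKN2D held 33. CDKN2C has 3 starts in the table, with 7, 35 and 10. Every gene thus had a promoter richer in CG than the median, whether its start lay at the bottom of the range of H3K27me3 or at the top, and the poorest of those, CDKN2B, ranked at percentile 63.2. The G and C share was 76.4% in the CDKN1A promoter and between 66.4% and 66.8% in the 3 promoters of the chromosome 9 locus. Which of the CDKN2C starts corresponds to the hg19 position was not determined.

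CDKN2A, the gene of p16INK4A and p14ARF, and CDKN2B, the gene of p15INK4B, lie head to tail on the minus strand of chromosome 9, their hg19 starts 19 and 15 kb apart. In the window of the p16INK4A start, from 21970001 to 21981000, replicate 1 held 26 reads and replicate 2 held 60, levels of 0.107 and 0.145. The p14ARF window, from 21989001 to 22000000, held 34 and 75 reads, levels of 0.140 and 0.182. At CDKN2B, from 22004001 to 22015000, there were 40 and 46 reads, levels of 0.165 and 0.111. As mean and SD over the libraries these are 0.126 ± 0.0268, 0.161 ± 0.0291 and 0.138 ± 0.0381 (SD, n = 2). The libraries of the 3 starts overlap, so no order among them can be read from these counts. Against the library mean each was lower in both libraries, with the weakest adjusted Poisson p at 1.02e-57, for CDKN2B in replicate 1. That test takes reads as independent, and 67.8% of listed autosomal bins with 1 to 10 reads held an even number in replicate 1 and 67.7% in replicate 2, so reads may not be independent, and whether both mates of a pair were counted was not tested.

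No bin within 5 kb of these starts approached the mean. The highest single bin stood at 0.545 in replicate 1, 3 kb downstream of the p14ARF start, and at 0.373 in replicate 2, 3 kb downstream of the p16INK4A start. The bin of the p16INK4A start itself held 0 reads and 4 reads, that of p14ARF held 2 and 4, and that of CDKN2B held 1 and 3. Among all autosomal windows the p16INK4A level ranked at percentile 9.51 in replicate 1 and 15.8 in replicate 2, that of p14ARF at 17.6 and 24.8, and that of CDKN2B at 23.8 and 7.91. The 10th percentile of these windows stood at 0.107 and 0.121. Among windows with every bin listed in at least 1 library, the ranks were lower. They were 4.14 and 8.48 for p16INK4A, 10.3 and 16.5 for p14ARF, and 15.9 and 2.79 for CDKN2B.

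The wider locus was also below the autosomal mean, though its level was above that of the 3 start windows. Such a level is common among autosomal stretches of 101 bins, whose median was 0.404 in replicate 1 and 0.433 in replicate 2. Among them, the stretches around the 3 starts ranked from percentile 26.1 (CDKN2B, replicate 1) to 39.3 (p16INK4A, replicate 2). From 50 kb below the p16INK4A start to 50 kb above the CDKN2B start, 21925001 to 22060000, the level was 0.261 in replicate 1 and 0.315 in replicate 2, or 0.288 ± 0.0382 (SD, n = 2). Each of its 135 bins held a read in at least 1 library, and the totals were 774 and 1594 reads. None of these bins was enriched by the rule applied to single 1 kb bins, where 12.7% of autosomal bins were. At an unadjusted Poisson p under 0.05 in both libraries 0 passed, a rule for which no autosomal share is given here. If bins were independent, a count of 0 would allow a share of up to 2.22%. Neighbouring bins need not be independent, and the share of autosomal stretches of 135 bins with 0 enriched bins is not given here. The limit therefore does not set the locus apart. The highest bin of the locus reached 1.09 in each library, at different places. In the GRCh38 gene table the protein-coding neighbours are IFNE and MTAP below CDKN2A and DMRTA1 and ELAVL2 above CDKN2B, and the long noncoding gene CDKN2B-AS1, also called ANRIL, is listed between them.

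The locus lay within a long stretch with no enriched bin. On hg19 this ran from 21268001 to 26743000, which is 5475 kb, from 708 kb below the p16INK4A start to 4734 kb above the CDKN2B start. Of its bins, 97.6% held a read in either library, and its level was 0.226 in replicate 1 and 0.245 in replicate 2. Of 61255 autosomal stretches between enriched bins, 324 were 1 Mb or longer and 38 were at least as long as this one. This counts stretches, most of them short, and does not give the share of the autosomes that lies in long ones. The level within 5 kb of the p16INK4A start was below that of the stretch in both libraries, as were those of p14ARF and CDKN2B. Nearest on either side were runs of at least 3 consecutive enriched bins at 21250001 to 21253000, at levels of 2.89 and 2.40, and at 27213001 to 27217000, at 3.15 and 3.14. Without an input, neither copy number nor mappability is corrected for in these levels, and less mark cannot be told apart from fewer mappable copies.

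CDKN2D, the gene of p19INK4D on the minus strand of chromosome 19, shared the low level at its start but not the surroundings. Its window, from 10675001 to 10686000, held 47 reads in replicate 1 and 40 in replicate 2, levels of 0.194 and 0.0969, or 0.146 ± 0.0688 (SD, n = 2). The 95% Poisson intervals of the libraries, 0.143 to 0.258 and 0.0692 to 0.132, do not overlap, and the SD is the largest of the 7 starts. The libraries thus differ there by more than counting error of independent reads. Reads may not be independent, as said for the chromosome 9 starts, and counting error may then exceed these intervals. Replicate 2 had 5 bins of the 11 without a read, the most of any start.

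Around CDKN2D some bins on both sides were enriched. Within 50 kb these were 10 of 101 bins (9.90%), a share near the 12.7% of autosomal bins, and the mean level was 0.826 in replicate 1 and 0.895 in replicate 2. Upstream of the start, a run of 3 bins from 10697001 to 10700000 had levels of 3.97 and 4.40, and its highest bin reached 6.73 and 6.85, the highest found within 50 kb of any of the 7 starts. A further run upstream, from 10709001 to 10712000, stood at 2.91 and 2.73. On the downstream side 3 bins from 10647001 to 10650000 stood at 2.67 and 2.87. CDKN2D thus sat in a gap of 47 kb between enriched bins, with levels from 6 to 10 kb downstream of 0.182 and 0.0746. In the gene table KRI1 is the next gene below and AP1M2 the next above. The runs are not assigned to these genes, whose hg19 positions were not used here.

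**Figure D2:**
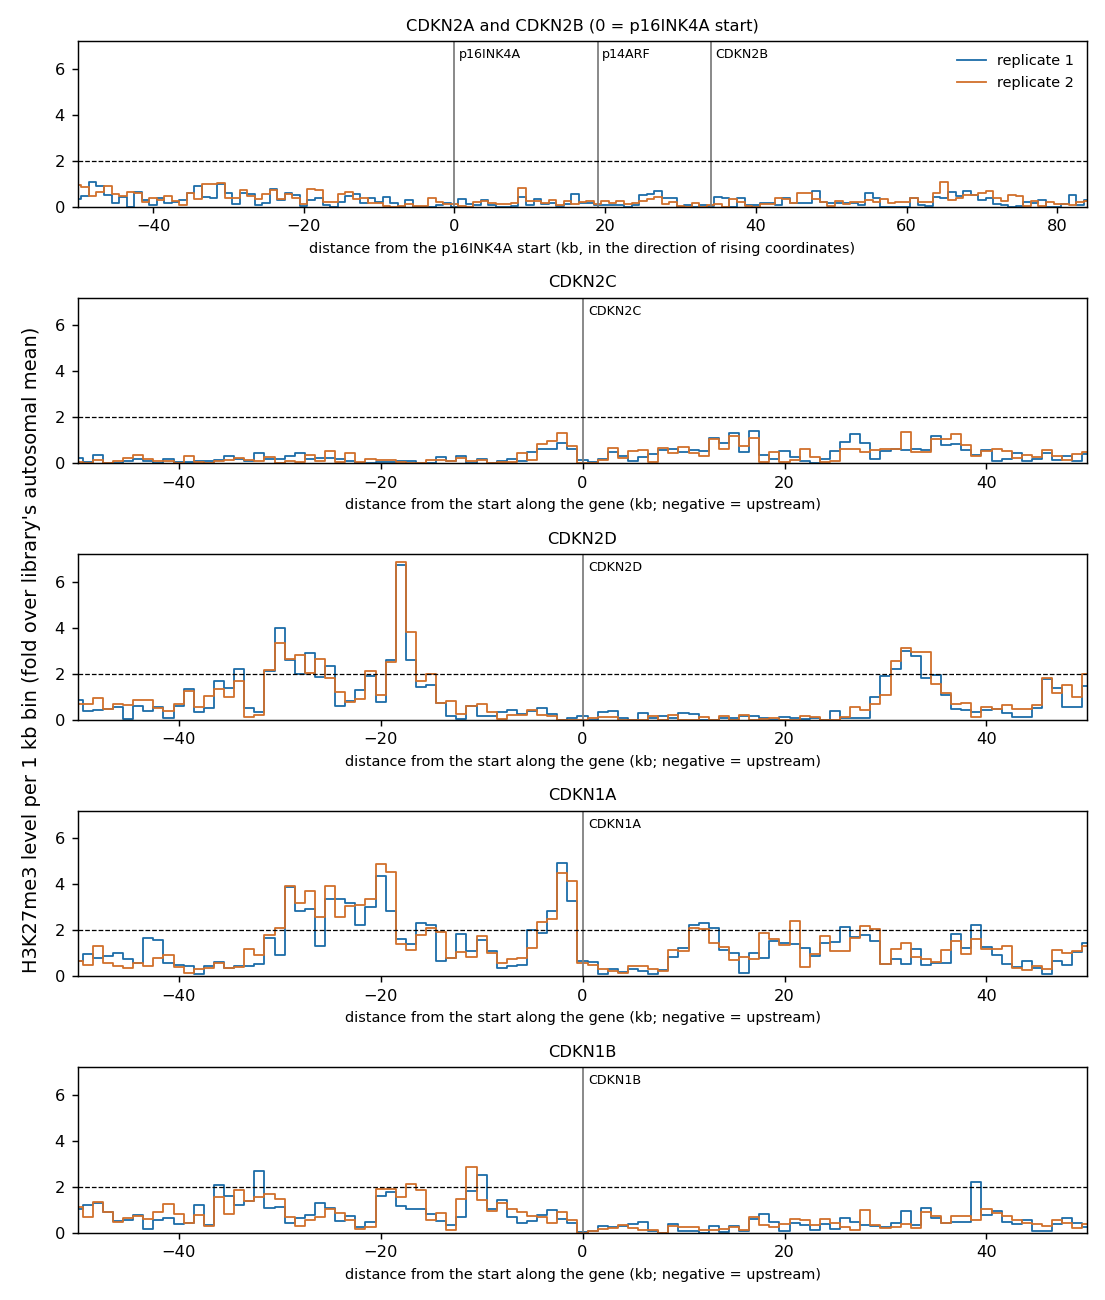
H3K27me3 level per 1 kb bin within 50 kb of the starts (fold over the library's autosomal mean) in replicate 1 (blue) and replicate 2 (orange), with grey lines at the starts and a dashed line at 2-fold. The upper panel runs in genome direction and covers the starts of p16INK4A, p14ARF and CDKN2B, where no bin exceeds 1.09. The others run along the gene, with enriched bins on both sides of CDKN2D and, upstream of CDKN1A, directly before the start.

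CDKN2C, the gene of p18INK4C on the plus strand of chromosome 1, was the highest of the INK4 starts. Its window, from 51429001 to 51440000, held 100 reads in replicate 1 and 209 in replicate 2, levels of 0.413 and 0.506, or 0.460 ± 0.0658 (SD, n = 2). Replicate 2 lay just over the limit of 0.5, so CDKN2C was not counted among the low starts. It was low with bins within 2 kb (0.407) or 10 kb (0.385), with the window moved 1 kb down (0.455), scaled to the mean of chromosome 1 (0.421), and without replicate 2 (0.413). Both libraries were below the mean, with an adjusted Poisson p of 6.12e-25 in replicate 1 and 1.67e-28 in replicate 2. They nonetheless lay above the median autosomal window, at percentile 55.7 in replicate 1 and 59.0 in replicate 2. The 2 libraries of CDKN2C lay above those of each other INK4 start. With 2 libraries against 2, the smallest two-sided exact permutation p is 0.333, so no difference between starts can pass a test over libraries.

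Its reads were uneven. The 5 bins upstream of the CDKN2C start averaged 0.654 in replicate 1 and 0.805 in replicate 2, and the 5 bins downstream 0.227 and 0.309. The last bin before the start held 14 and 28 reads, the start bin held 3 and 0, and the next bin held 1 and 0. From 6 to 50 kb upstream every step of up to 10 kb averaged between 0.0954 and 0.186 in replicate 1, and downstream the level was higher again, at 0.741 and 0.605 at 11 to 20 kb. No bin within 50 kb was enriched. At an unadjusted Poisson p under 0.05 in both libraries 0 passed, again with no autosomal share given for that rule. The highest bins stood at 1.41 and 1.36, and the nearest enriched bin was 222 kb away, at higher coordinates. FAF1 is the protein-coding gene below CDKN2C in the table and C1orf185 the one above.

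CDKN1A, the gene of p21CIP1 and a classical target of p53, lies on the plus strand of chromosome 6 and had the highest level of the 7 starts. Its window, from 36641001 to 36652000, held 376 reads in replicate 1 and 633 in replicate 2, levels of 1.55 and 1.53, or 1.54 ± 0.0145 (SD, n = 2). Both libraries exceeded the mean, with adjusted Poisson p of 5.58e-15 and 3.14e-23, and fell short of the 2-fold minimum. They ranked at percentile 82.0 and 80.7 of autosomal windows. The next start in order, CDKN2C, was 3.36 times lower, and neither the libraries nor their 95% intervals overlapped. The call depended on the reference: scaled to the mean of chromosome 6 the level was 2.03 and CDKN1A was enriched, where 13.4% of windows were. It was also enriched at 3.95 when scaled to the median listed bin, where 29.2% of windows were, and with a minimum of 1.5-fold, where 18.2% were.

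That window average joined unlike sides. The 5 bins upstream of the CDKN1A start held 327 reads in replicate 1 and 553 in replicate 2, levels of 2.97 and 2.95, and the 5 bins downstream, into the gene, held 34 and 58, levels of 0.309 in each. Upstream was thus 9.62 and 9.53 times downstream. Bin by bin, replicate 1 held 44, 41, 62, 108 and 72 reads from 5 kb to 1 kb upstream, 15 in the start bin and 14, 2, 7, 4 and 7 beyond it. In replicate 2 the same bins held 46, 89, 94, 169 and 155, then 22, then 18, 11, 8, 5 and 16. The level fell from 3.27 to 0.682 in replicate 1 and from 4.13 to 0.586 in replicate 2 between the last bin before the start and the start bin. The 3 bins from 36643001 to 36646000 formed an enriched run at 3.67 and 3.71, and they are the only enriched bins among the 77 of the 7 windows. Among the 267706 autosomal windows with a level between 1 and 2 in both libraries, 1.18% had sides that differed at least as much, in either orientation. This contrast was chosen after the values were seen, and the rank is a description.

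**Figure D3:**
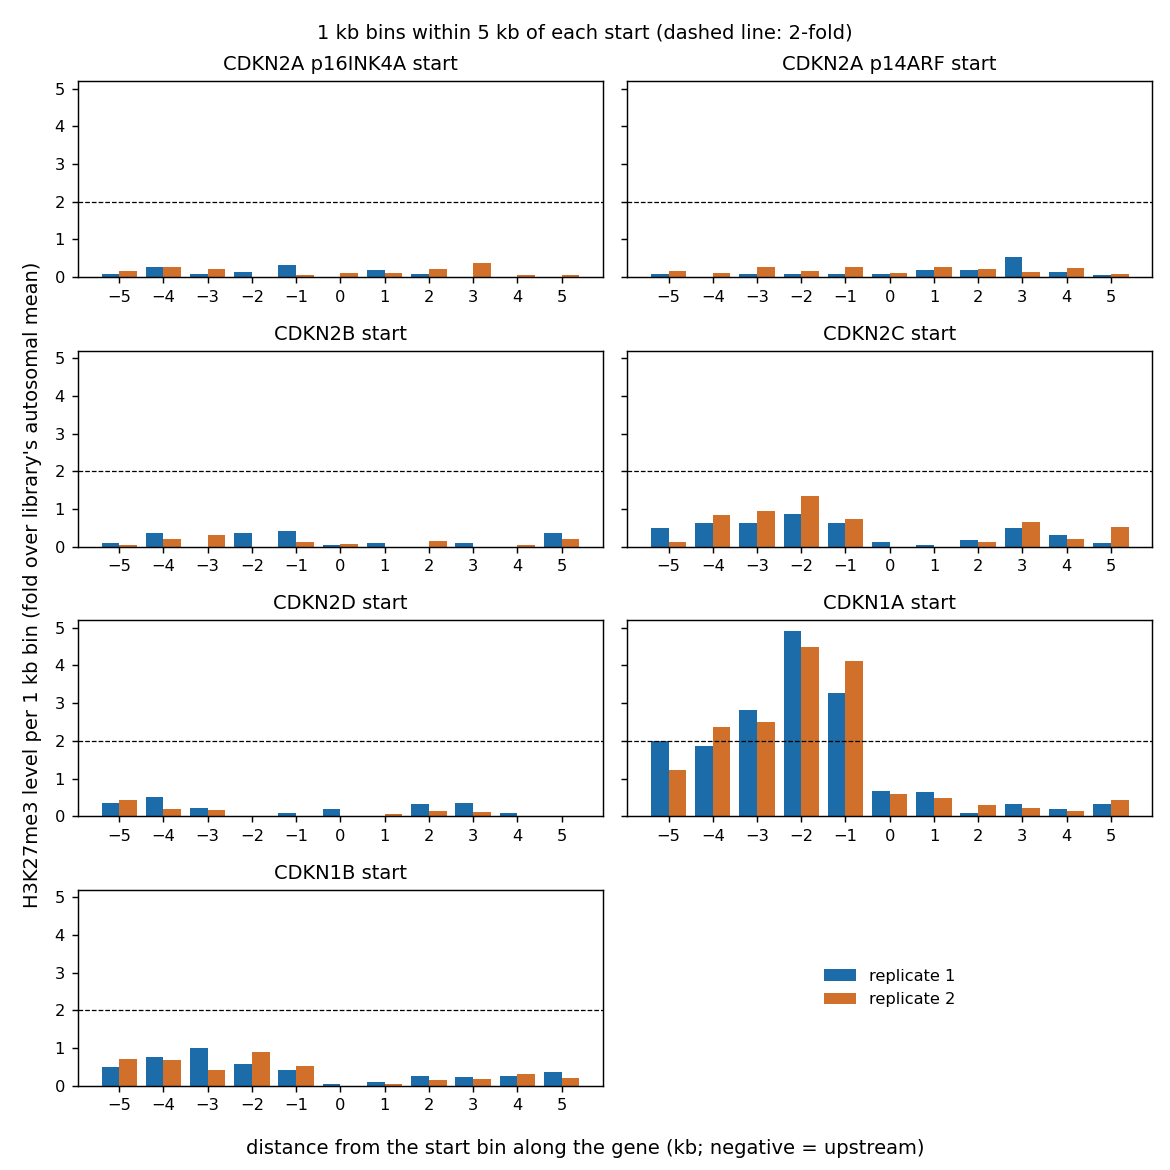
H3K27me3 level in each 1 kb bin within 5 kb of the 7 starts (fold over the library's autosomal mean), ordered along the gene, for replicate 1 (blue) and replicate 2 (orange), with a dashed line at 2-fold. At CDKN1A the bins 3 to 1 kb upstream pass 2-fold in both libraries and the start bin is at 0.682 and 0.586. At CDKN2C and CDKN1B the upstream bins are higher than the start bin, and at the other starts all bins are at or under 0.545.

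Further upstream CDKN1A had a further enriched stretch. A run of 7 bins from 36621001 to 36628000, 25 to 19 kb before the start, stood at 3.19 and 3.64, and 3 bins from 36617001 to 36620000 stood at 3.20 and 3.61. Between this stretch and the run at the start lay a single enriched bin from 36631001 to 36632000, at 2.23 and 2.10, and from 10 to 6 kb upstream no bin was enriched and the level was 0.800 in replicate 1 and 0.970 in replicate 2. Past the trough at the start the level recovered to 1.37 and 1.40 at 11 to 20 kb downstream, where 2 bins from 36657001 to 36659000 were enriched at 2.27 and 2.06. In all 16 of 101 bins (15.8%) within 50 kb were enriched, against 12.7% of autosomal bins. The level over those bins was 1.29 and 1.36, at percentile 78.5 and 78.4 of autosomal stretches of that length. The long noncoding gene PANDAR and the pseudogene LAP3P2 are listed just below CDKN1A in the gene table, and DINOL and RAB44 just above.

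CDKN1B, the gene of p27KIP1 on the plus strand of chromosome 12, met the rule for a low start but ranked near the middle of autosomal windows, at percentile 55.7 in replicate 1 and 51.7 in replicate 2. The window from 12865001 to 12876000 held 100 reads in replicate 1 and 158 in replicate 2, levels of 0.413 and 0.383, or 0.398 ± 0.0216 (SD, n = 2). Within 10 kb of the start the level was 0.527, and CDKN1B was then not low. Its libraries overlap those of CDKN2C, and both lay above those of p14ARF, the next in order, which was 2.47 times lower. The start bin held 1 and 0 reads, after 9 and 20 reads in the bin before it. Upstream the 5 bins averaged 0.654 and 0.655, and downstream 0.245 and 0.186, a ratio of 2.67 and 3.51.

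The asymmetry at CDKN1B continued outward. From 20 to 11 kb upstream the level was 1.08 in replicate 1 and 1.52 in replicate 2, and from 11 to 20 kb downstream 0.273 and 0.272. No bin within 50 kb was enriched in both libraries, and the highest bins reached 2.68 and 2.85 in different places. At an unadjusted Poisson p under 0.05 in both libraries, 6 of 101 bins passed. By that rule 32 passed around CDKN1A, 22 around CDKN2D and 0 around each other start. The share of autosomal bins that pass it is not given here, so these counts cannot be called many or few. The nearest enriched bins were 133 kb below and 308 kb above. GPR19 precedes CDKN1B in the table and APOLD1 is the next protein-coding gene after it.

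At all 7 starts the start bin, as placed to the nearest kb, lay below the level of its own window in both libraries. Among all autosomal windows 38.0% had such a centre bin. The placements were not checked, and a neighbouring bin can differ. At p16INK4A the next bin downstream stood at 0.182 in replicate 1, above the window's level of 0.107. A start bin below its window is not a fall from the bin before at every start. At CDKN2D in replicate 1 the start bin held 4 reads and the bin just upstream 2. Upstream exceeded downstream in both libraries at 5 of 7 starts, namely CDKN2B, CDKN2C, CDKN2D, CDKN1A and CDKN1B, where a given side exceeded the other in both libraries in 35.8% of autosomal windows. At p16INK4A and p14ARF the libraries gave opposite orders. At the chromosome 9 locus and at CDKN2D the bins hold few reads. There such differences rest on at most 36 reads per side, and at most 4 in a start bin, in a library. The windows of CDKN2A and CDKN2B share a locus and are not independent.

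**Figure D4:**
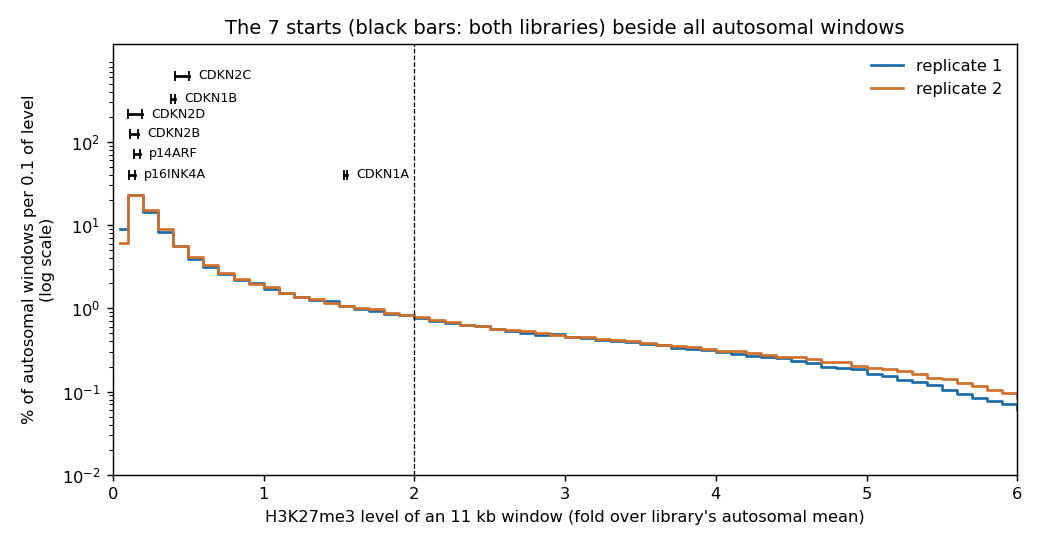
Share of autosomal 11 kb windows by H3K27me3 level (percent per 0.1 of level, log axis) in replicate 1 (blue) and replicate 2 (orange), cut at a level of 6 on the x axis. Black bars, placed at arbitrary heights, span both libraries at each of the 7 starts, and the dashed line marks 2-fold. The chromosome 9 and CDKN2D starts fall below the median window of 0.335 and 0.358, and CDKN1A falls between 1 and 2.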

How the data were processed

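The 2 libraries form 1 group of HCT116 cells. Per the text deposited with them, the files give a read count for each bin of 1000 bases. They list no bin without a read, and such bins were taken as 0. The submitters' processing notes name BWA 0.7.12 for alignment and hg19 (GRCh37) as the build. How reads were counted, and any filter on duplicates or mapping quality, is not given in the sources used here.

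The level of a window is its count over the library's mean of listed autosomal 1 kb bins, shown per library or as a mean with its SD. Windows of 11 bins (5 kb either side of the start) and single bins were compared with that mean by one-sided Poisson tests, Benjamini-Hochberg adjusted over all autosomal windows or bins that held a read. The minimum was 2-fold for enriched and the maximum 0.5-fold for low ones, in both libraries. A run is at least 3 consecutive enriched bins. Intervals are exact 95% Poisson intervals; these and the limit for a count of 0 (3 counts) cover counting error only. The tests bear on counts in these libraries, not on the spread between cultures. The window test was also run on simulated counts with blocks planted on a flat background. These counts were doubled Poisson draws, so that each was even. The background of these libraries is not flat, so that run does not give the error rate here.

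The 6 genes, their hg19 starts and the lists were chosen with earlier results of these data known. All members are named with values, and neighbours are named by their order in the GRCh38 gene table. The starts were not checked against an hg19 annotation, and strand is from the RefSeq promoter table. Other cell-cycle genes and protein sequences were not analysed here. Alternatives covered window, position, scaling, thresholds, halved counts and each replicate left out. Scaling to bins listed in either library, the contrast between sides, the start bin against its window and the stretch without enriched bins were added after the data were seen. The software was Python 3.11.15 with numpy 2.4.6, pandas 2.3.3, scipy 1.17.1 and, for plots, matplotlib 3.10.9.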

Additional observations from a re-analysis of the deposited data

How the results depend on the processing

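Of 114 recomputed values of the starts and their counts, 102 kept their direction and their side of the threshold for enrichment, or, for counts, stayed within 1.5 times and, for the level within 50 kb, within 1 SD. Some of these could not change: fold minima of 1.5 or 3 and halved counts leave a level as it is, and starts below the mean cannot pass such minima. A start whose low call alone changed is among the 102. CDKN1A, at 1.54 and not enriched, became enriched at 2.03 when scaled to the mean of its chromosome, at 3.95 when scaled to the median listed autosomal bin, and at its own 1.54 with a fold minimum of 1.5. The number of enriched starts was then 1 in each of these settings, where 13.4%, 29.2% and 18.2% of all windows were enriched, and 0 in every other setting run. Scaling to the median bin also put CDKN1B at 1.02 and CDKN2C at 1.18, above 1 as the reference is lower. The number of low starts, 5, ran from 4 to 6. CDKN2C also became low within 2 kb (0.407), within 10 kb (0.385), moved 1 kb down (0.455), scaled to the chromosome (0.421) and without replicate 2 (0.413), and CDKN1B was no longer low within 10 kb (0.527) or scaled to the median bin. The median over the 7 starts of the level within 50 kb, 0.351, became 0.309 within 100 kb, 0.900 scaled to the median bin, 0.321 scaled to the chromosome and 0.374 scaled to bins listed in either library, the last added after the data were seen. For single loci, the level within 50 kb of CDKN1A, 1.33, was 0.962 within 100 kb, and scaling to the median bin gave 1.74 at CDKN1B and 2.21 at CDKN2D. The causes were not tested beyond the change of reference or width itself. Leaving out a replicate changed no call of enrichment. No paired analysis was possible because the libraries form a single group. At 22.0 and 37.5 reads per average bin, single bins carry a counting error of 21.3% and 16.3%, which limits what bins of the low starts can show.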
